A study of Macaca mulatta with 12 samples.

Results

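The corpora lutea compared here were taken at successive stages of the luteal phase while the gland still secreted progesterone. The 4 late functional arrays were set against the 4 mid-late arrays, which makes 8 of the 12 arrays of the series, and all 52707 non-control probe sets were tested. Members were chosen by their sample titles alone. Each array measured the RNA of 1 corpus luteum of a rhesus macaque with normal menstrual cycles, and the labels call the 4 arrays of a group biological replicates. Mid-late glands, the baseline group of the study, were collected on days 10 to 12 after the midcycle LH surge. Late functional glands were collected on days 14 to 16 from animals with serum progesterone above 1.5 ng/ml. The third group, 4 late regressed glands from the same days with serum progesterone below 0.5 ng/ml, is not part of the comparison. Its arrays entered the fit that estimates the spread, and their values are printed beside some genes. No gland was treated, the days were counted from the fall of serum oestradiol, and neither the animals' ages nor whether an animal gave more than 1 gland is given in the sources used here. Collection day and any other property that changed between the groups cannot be told apart.

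The corpus luteum forms from the ovulated follicle and makes progesterone from cholesterol. STAR moves cholesterol into the mitochondrion, a cytochrome fed by the electron carriers FDX1 and FDXR cleaves its side chain, and 3-beta-hydroxysteroid dehydrogenase (HSD3B2) turns pregnenolone into progesterone. In primates LH maintains the gland, and in a cycle without conception it loses steroid output and is later taken apart with the help of invading leukocytes.

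Of the genes that make progesterone, HSD3B2 fell 3.22-fold in late functional glands, while STAR, FDX1 and FDXR did not pass the test. Among called genes, each read by its brightest probe set, the natriuretic peptide receptor gene NPR3 had the largest decrease (4.76-fold). The retinoid-induced lipid enzyme gene PLAAT4 had the largest increase (2.59 on the log2 scale, from a dim level). The 2 probe sets of PLAAT4 went opposite ways, with a mean of 1.20. Of 24 interferon-stimulated genes 2 rose, IRF1 and IFI35, and of 16 antigen processing genes 1 did, ERAP2, against 0.593% of all genes. SAMD9L, interferon-inducible and outside these lists, rose too, while classical antiviral genes such as MX1 and ISG15 overlapped between the groups. Macrophage, lysosome and complement genes lay above their mid-late range more often than genes in general, and cell cycle genes below it. Most differences of the called genes stood close to the threshold of the test. The lists were chosen with earlier results of these data known, so their shares are a description and no independent support.

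In the 12-array fit limma called 470 of 52707 probe sets at an adjusted p below 0.05 (Benjamini-Hochberg over all probe sets), which is 0.892%, with 175 higher and 295 lower in late functional glands. Of the 470, 59 differed at least 2-fold. Of 12993 genes with 1 symbol that is not a LOC identifier, each read by its brightest probe set, 77 rose (0.593%) and 74 fell (0.57%). When only the 8 arrays compared were fitted, 2682 probe sets were called (5.09%). These included all 470, and among genes 551 were higher (4.24%) and 290 lower (2.23%). The late regressed arrays differed more among themselves, with a median SD per probe set of 0.17 against 0.13 for mid-late and 0.12 for late functional arrays, and this spread is shared by the 12-array fit. Late regressed array 2 also had a log2 gap between 3′ and 5′ control signals of 2.52, against 0.46 to 0.70 on the other 11 arrays, and without it 1008 probe sets were called. The part of RNA quality in that count was not tested. All calls below are those of the 12-array fit unless the 8-array fit is named. As a description without a test, all 4 late functional arrays lay above all 4 mid-late arrays for 1386 genes (10.7%) and below them for 1080 (8.31%). These shares move with the scaling, to 6.86% above and 10.4% below after renewed quantile normalization, 13.4% and 5.8% after median centring, and 20.1% and 2.63% when arrays were centred on the mean of the NC probe sets described next. Shares of lists are set beside those as deposited, and list counts printed without a share are to be read against them too. The median difference over all genes was -0.0026. Of the 295 probe sets called lower, 123 had both group means under 4.64, the 95th percentile of 674 mostly dim probe sets with the prefix NC, against 13 of the 175 called higher.

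The calls rested on every array. Leaving out 1 of the 8 arrays compared left between 4 calls (without late functional array 2) and 209 (without mid-late array 4). The other counts were 10 without late functional array 3, 16 without mid-late array 1, 19 without mid-late array 2, 22 without late functional array 1, 74 without mid-late array 3 and 142 without late functional array 4. Without late regressed array 2 it rose to 1008. Of the 27 called genes named below by rule, 14 lost their call whichever of the 8 arrays was left out, and 13 kept it without at least 1 of them. In the 8-array fit 19 of the 27 kept their call without any single array. None of the 27 changed direction in any setting tried. They were chosen as called, and where the groups do not overlap leaving out an array cannot turn the direction, so this is no separate support.

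**Figure D1:**
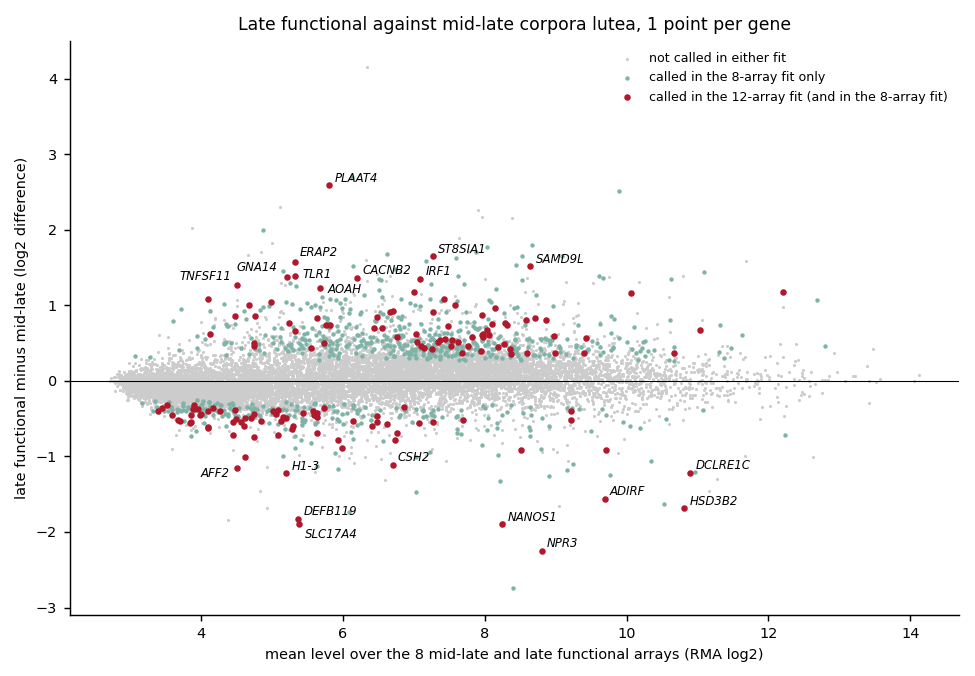
Each point is 1 of 12993 genes, with its mean RMA log2 level over the 8 mid-late and late functional arrays on the horizontal axis and the log2 difference, late functional minus mid-late, on the vertical axis. Red points are the 151 genes called in the 12-array fit, green points were called in the 8-array fit alone, and the 10 largest increases and 10 largest decreases are named. NPR3 lies lowest among the red points at -2.25 and PLAAT4 highest at 2.59.

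The 8 arrays compared differed between the groups in both technical measures tested. A sign of RNA integrity, the log2 gap between the 3′ and 5′ controls for beta-actin and GAPDH, was 0.59 ± 0.04 (SD, n = 4) in late functional and 0.66 ± 0.03 in mid-late arrays, with beta-actin alone higher in late functional arrays by 0.12 and GAPDH alone differing by -0.27. The mean of the NC probe sets was 3.57 ± 0.04 and 3.69 ± 0.05. Neither measure overlapped between the groups (exact two-sided permutation p = 0.0286 for each, also after adjustment over both, the smallest p that 4 against 4 arrays allow). With the NC mean as a covariate limma called 0 probe sets, with 3471 at an unadjusted p below 0.05. Since that mean separates the groups, it cannot be told apart from them. When the 3′ to 5′ gap entered as a covariate, 883 were called. Late regressed array 2, at 2.52 against 0.46 to 0.70 on all others, carries most of that covariate's range. The gap separates the groups compared as well, so this count does not show the calls to be free of it. The first principal component of the 8 arrays (38.5% of the variance) put mid-late arrays between -42.8 and -16.1 and late functional ones between 17.6 and 39. On the second (22.7%) late functional array 4 stood apart at 51.06, against -21.4 to 25.6 for the others. Among luteal markers STAR, FDX1, INHA, HSD3B2 and CYP19A1 averaged 9.97 or more in both groups, against 4.64 for the dim probe set limit. MRAP averaged 8.87 in mid-late and 8.12 in late functional arrays, and NR5A1 averaged 7.02 and 6.74. Late regressed arrays also stood above that limit, with STAR at 11.32.

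HSD3B2, the enzyme that makes progesterone, fell in glands of animals that still had serum progesterone above 1.5 ng/ml. Mid-late arrays 1 to 4 read 11.64, 12.06, 11.16 and 11.78, and late functional arrays 1 to 4 read 10.52, 10.43, 9.88 and 9.04. The groups did not overlap, and late functional array 4 was the lowest of the 8. The log2 difference was -1.69 (SE 0.33, adjusted p = 0.0435; 0.0217 in the 8-array fit). Without 1 of the 8 arrays it ran from -1.87 to -1.38 with adjusted p from 0.0656 to 0.122, so the call was lost without any one of them. In the late regressed arrays the values were 8.52, 9.04, 7.93 and 8.70. HSD3B2 has a close relative, HSD3B1, from which its single probe set may not be separate. Whether the gland held fewer luteal cells or each cell less of this mRNA cannot be told apart in whole-tissue RNA, and that holds for all genes below.

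The carriers that supply the pathway did not pass the test. STAR read 13.66, 13.55, 13.38 and 13.49 in mid-late and 13.63, 13.69, 13.53 and 13.15 in late functional arrays, a difference of -0.02 (95% interval of the 12-array fit -1.42 to 1.39, adjusted p = 0.993). Its groups overlapped, and the interval is wide because the fit shares the late regressed arrays' spread. FDX1 differed by -0.04 (adjusted p = 0.954) and FDXR by -0.31 (adjusted p = 0.742), where late functional array 4 at 9.20 lay below the other 7 arrays. CYP19A1, the aromatase, differed by 0.11 and overlapped, with mid-late array 2 lowest at 10.84.

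List members that are named below without having been called, beyond the few taken by rule, were picked after their values were seen. Of 16 measured genes of progesterone synthesis and its control, HSD3B2 fell, 0 rose and 15 did not pass, with a median difference of -0.18 against -0.0026 for all genes. The groups were apart downwards for 3 of the 16, HSD3B2, MRAP and NR5A1 (18.8%, against 8.31% of all genes). They were apart upwards for 1 (6.25% against 10.7%). NR5A1, the steroidogenic factor that switches on this pathway, lay between 6.91 and 7.11 on mid-late and between 6.72 and 6.77 on late functional arrays. That narrow step of -0.27 did not overlap, but it was not called (adjusted p = 0.471; 0.0515 in the 8-array fit). MRAP, the accessory protein that carries the melanocortin receptor to the surface, was also apart at -0.75 (adjusted p = 0.529; 0.073 in the 8-array fit). NR5A2 (-0.26), GATA6 (-0.11), PRLR (-0.07), INHA (-0.18) and PGRMC1 (0.04) overlapped and were not called. PGR, the nuclear progesterone receptor, stayed at low signal, between 3.42 and 3.80 on all 8 arrays. VEGFA has no probe set under its symbol in the annotation used and is not analysed here.

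**Figure D2:**
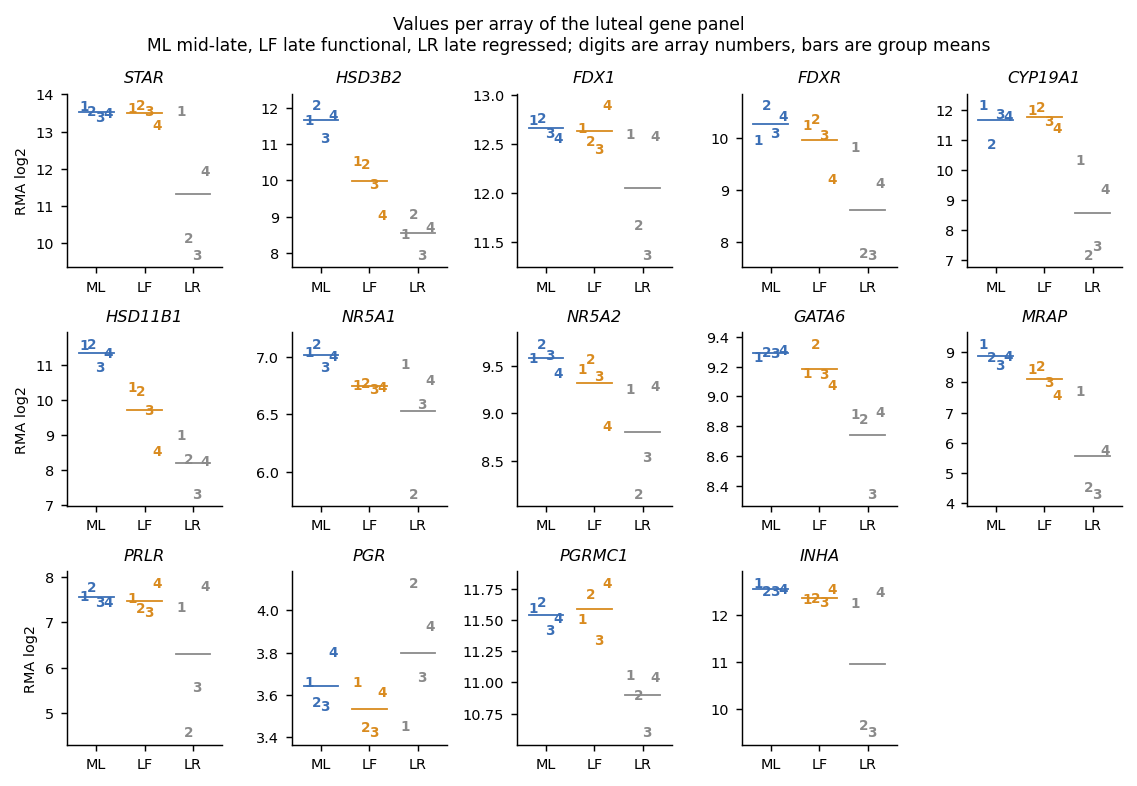
Each panel gives 1 gene of the luteal panel, with RMA log2 values on the vertical axis (axes differ and do not start at 0) and mid-late (ML), late functional (LF) and late regressed (LR) arrays along the horizontal axis. Digits are array numbers and bars are group means. HSD3B2 and HSD11B1 show 2 groups apart, at -1.69 and -1.63, while STAR, FDX1 and CYP19A1 overlap between ML and LF.

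Among 11 other steroid enzymes 0 were called in the 12-array fit and 2 were lower in the 8-array fit. HSD11B1, which interconverts cortisone and cortisol, read 11.55, 11.58, 10.92 and 11.32 in mid-late and 10.37, 10.25, 9.70 and 8.54 in late functional arrays. The groups did not overlap and the difference of -1.63 (SE 0.41) missed the threshold (adjusted p = 0.0774) but passed it in the 8-array fit (0.0333). DHRS9, a short-chain dehydrogenase, differed by -1.66 with overlap, since late functional array 1 at 9.38 lay above mid-late array 2 at 9.31. It was called in neither fit (adjusted p = 0.157, and 0.0657 in the 8-array fit). CYP17A1, which makes androgens, was apart upwards by 0.54 (adjusted p = 0.142), and the list's median was 0.04, negative after renewed quantile normalization (-0.07).

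Cholesterol supply showed no called gene in the 12-array fit. Of 16 cholesterol synthesis genes 0 were called in either fit and 1 was apart, TM7SF2, a late-step sterol reductase, at 0.35 higher (adjusted p = 0.773). SQLE, squalene epoxidase, differed by -0.33 with overlap (adjusted p = 0.713). The list's median of -0.11 depended on late functional array 4, without which it was 0.09. Of 15 genes of lipoprotein uptake, storage and efflux, 5 were apart upwards (33.3%, against 10.7% of all genes) and 0 downwards. After renewed quantile normalization 2 were apart upwards (13.3%, against 6.86%). NR1H3, an oxysterol receptor, read 6.37, 6.43, 6.85 and 6.43 in mid-late and 7.34, 7.53, 7.90 and 7.28 in late functional arrays. That difference of 1.00 was not called (adjusted p = 0.216) but was in the 8-array fit (0.0137). LPL, lipoprotein lipase, was apart by 0.79 (adjusted p = 0.642), with late functional array 3 at 5.96 close to mid-late array 3 at 5.93. Macrophages express several members of this list, and the macrophage list had a positive median too, whose part in this was not tested.

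NPR3, the receptor that clears natriuretic peptides, had the largest decrease of any called gene. It read 9.55, 10.32, 9.64 and 10.20 in mid-late and 8.30, 7.99, 7.34 and 7.08 in late functional arrays. No array overlapped, and the log2 difference was -2.25 (SE 0.46, adjusted p = 0.0483; 0.00791 in the 8-array fit). Its other probe set moved the same way without a call, and the mean over both gave -2.11 (adjusted p = 0.057). The signalling receptors NPR1 (-0.15) and NPR2 (-0.07) for these peptides overlapped and were not called. Of 16 peptide hormone and vasoactive genes NPR3 was the 1 called, with a list median of 0.03. RLN2, which encodes the luteal hormone relaxin, was apart upwards, at 11.99, 11.65, 12.64 and 12.30 against 12.93, 13.16, 13.09 and 13.71. Its difference of 1.08 was not called (adjusted p = 0.179; 0.0296 in the 8-array fit). NPR1, NPR2 and RLN2 were picked after their values were seen.

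NANOS1, a repressor of translation known from germ cells, fell by 1.90. Mid-late values were 8.54, 9.66, 9.15 and 9.43 and late functional values 7.69, 7.41, 7.04 and 7.05 (SE 0.31, adjusted p = 0.0327). ADIRF, adipogenesis regulatory factor, fell by 1.56, from 10.17, 10.88, 10.18 and 10.65 to 8.98, 8.98, 9.12 and 8.56 (SE 0.25, adjusted p = 0.0323). The closest arrays of the groups lay 0.85 apart for NANOS1 and 1.05 apart for ADIRF. The late regressed means of NANOS1 (6.65 ± 0.63) and ADIRF (8.86 ± 0.53) lay at or below the late functional ones (7.30 ± 0.31 and 8.91 ± 0.24). DCLRE1C, the nuclease Artemis of DNA end joining, fell by 1.21 from a high level (11.50 ± 0.25 to 10.29 ± 0.41, adjusted p = 0.0431). Of its 3 probe sets 2 were called and the third went the other way, and the mean over them was not called (-0.69, adjusted p = 0.0669).

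Other large decreases ended below the dim limit of 4.64, so their fold size is uncertain. SLC17A4, a transporter of organic anions and phosphate, read 7.32, 6.70, 5.56 and 5.75 in mid-late and 4.61, 4.28, 4.15 and 4.72 in late functional arrays (-1.89, SE 0.34, adjusted p = 0.0363). Mid-late arrays 1 and 2 stood above 3 and 4 for this gene. DEFB119, a beta-defensin of a family of close copies, fell by 1.83 from 6.28 ± 0.44 to 4.45 ± 0.55 (adjusted p = 0.0229), or by 1.22 as the mean over its 2 probe sets. H1-3, a linker histone, fell by 1.22 (adjusted p = 0.0458) and AFF2, a nuclear protein, by 1.15 to 3.93 ± 0.18 (adjusted p = 0.0327). A gene that stayed above that limit was CSH2, named for a placental lactogen of the growth hormone family, which fell by 1.11 from 7.25 ± 0.30 to 6.15 ± 0.13 (SE 0.14, adjusted p = 0.019). Its probe set may read other members of that family. By the rule that chose them, none of these 5 overlapped between the groups.

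**Figure D3:**
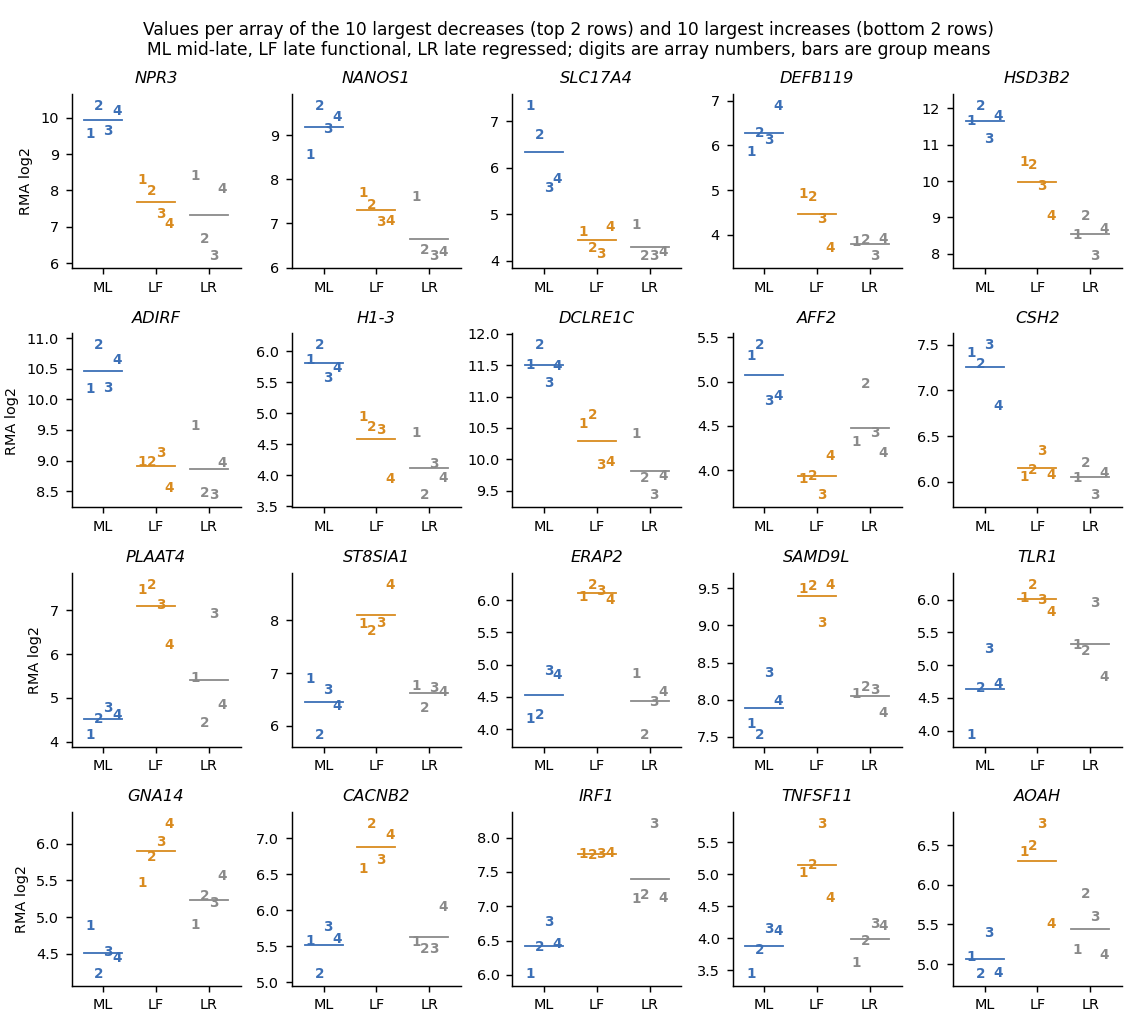
Each panel gives RMA log2 values (vertical axis, not starting at 0) of 1 of the 10 largest decreases (upper rows) or increases (lower rows) on mid-late (ML), late functional (LF) and late regressed (LR) arrays. Digits are array numbers and bars group means. By the rule ML and LF never overlap, and LR arrays lie near LF for NPR3 and CSH2 but near ML for ERAP2, SAMD9L, ST8SIA1 and CACNB2.

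PLAAT4, an acyltransferase and phospholipase gene first known as a retinoic acid response gene, had the largest increase of any called gene by its brightest probe set. It read 4.16, 4.51, 4.76 and 4.61 in mid-late and 7.46, 7.58, 7.12 and 6.22 in late functional arrays. Late functional array 4 was the lowest of its group and still 1.45 above the highest mid-late array. The difference was 2.59 (SE 0.46, adjusted p = 0.0363; 0.00662 in the 8-array fit), from a mid-late level below the dim limit. Of its 2 probe sets 1 showed this and the other went the other way, and the mean over both was 1.20 (adjusted p = 0.0406). On late regressed arrays it read 5.45, 4.42, 6.91 and 4.84.

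ST8SIA1, the synthase of ganglioside GD3, rose by 1.65. The mid-late values 6.90, 5.83, 6.69 and 6.37 stood against 7.94, 7.81, 7.95 and 8.68 in late functional arrays (SE 0.23, adjusted p = 0.0211). CACNB2, a regulatory subunit of voltage-gated calcium channels, rose by 1.37, from 5.57, 5.12, 5.77 and 5.60 to 6.58, 7.20, 6.70 and 7.04 (SE 0.18, adjusted p = 0.0195). GNA14, a G protein subunit that activates phospholipase C, rose by 1.38 from 4.52 ± 0.27, under the dim limit, to 5.89 ± 0.34 (adjusted p = 0.0211). The late functional arrays lay at least 0.58 above the mid-late ones for all 3 genes. In late regressed arrays ST8SIA1 (6.61 ± 0.19) and CACNB2 (5.63 ± 0.28) averaged near their mid-late means of 6.45 and 5.51. The late regressed against late functional difference was -1.48 for ST8SIA1 (adjusted p = 0.0834) and -1.25 for CACNB2 (adjusted p = 0.0672), neither called.

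TNFSF11, which encodes the cytokine RANKL, rose by 1.27 from a dim level, 3.44, 3.82, 4.14 and 4.11, to 5.02, 5.14, 5.79 and 4.62 (adjusted p = 0.0416), with the mean over its 2 probe sets not called (adjusted p = 0.0641). AOAH, an enzyme that inactivates bacterial lipopolysaccharide, rose by 1.23 (5.06 ± 0.24 to 6.30 ± 0.55, adjusted p = 0.0495), with late functional array 4 at 5.51 close to mid-late array 3 at 5.39. Its second probe set went the other way, and their mean was not called (0.52, adjusted p = 0.133). TLR1, a receptor for bacterial lipopeptides, rose by 1.38, from between 3.94 and 5.24 on mid-late to between 5.81 and 6.23 on late functional arrays (adjusted p = 0.0433). Its mid-late mean lay just under the dim limit. AOAH and TLR1 are expressed in myeloid cells. Of 15 macrophage markers 0 were called, with a median difference of 1.18, and of 7 neutrophil markers 0 were called, with a median of -0.21; their part in these increases was not tested.

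Of 24 interferon-stimulated genes 2 rose, and 0 fell, against 0.593% and 0.57% of all genes. IRF1, a transcription factor induced by interferon gamma, read 6.02, 6.41, 6.78 and 6.45 in mid-late and 7.77, 7.75, 7.75 and 7.77 in late functional arrays. The late functional arrays lay within 0.03 of each other and lay 0.97 above the highest mid-late one, for a difference of 1.35 (SE 0.23, adjusted p = 0.0358). IFI35, an interferon-induced regulator, rose by 0.67 from 7.69 ± 0.17 to 8.36 ± 0.08 (SE 0.14, adjusted p = 0.0475). SAMD9L, an interferon-inducible brake on growth and viruses outside this list, read 7.67, 7.53, 8.36 and 7.98 against 9.49, 9.53, 9.03 and 9.55. It rose by 1.52 (SE 0.17, adjusted p = 0.0139), or by 0.86 as the mean over its 3 probe sets (adjusted p = 0.0128). The gene lost its call without late functional array 2 (adjusted p = 0.0741) and kept it without any other single array of the 12. Its late regressed values of 8.08, 8.16, 8.13 and 7.82 lay within the mid-late range, and the late regressed against late functional difference of -1.35 missed the threshold (adjusted p = 0.0506).

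Of the 24 interferon-stimulated genes 9 were apart upwards (37.5% against 10.7% of all genes) and 0 downwards, with a median of 0.50. The genes without separation included the classical antiviral set. MX1 read 5.58, 7.77, 8.64 and 8.95 in mid-late and 8.46, 8.78, 8.54 and 8.33 in late functional arrays. ISG15, IFI44, IFIT3 and MX2 overlapped in the same way, with mid-late arrays 3 or 4 reaching late functional levels and mid-late array 1 lowest. Without mid-late array 1 the list median was 0.27. STAT2, a signal carrier of the response, differed by 0.01.

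Of 16 antigen processing genes 1 rose, against 0.593% of all genes. The 8-array fit called 7 higher, against 4.24% of all genes. ERAP2, an aminopeptidase that trims peptides for MHC class I, read 4.16, 4.22, 4.90 and 4.85 in mid-late and 6.04, 6.24, 6.14 and 6.01 in late functional arrays. It rose by 1.58 (SE 0.21, adjusted p = 0.0195), both its probe sets were called, and late regressed arrays lay back at 4.86, 3.92, 4.42 and 4.57. Its mid-late mean of 4.53 is under the dim limit, and ERAP1 is a related gene. ERAP1 was apart by 0.77 (adjusted p = 0.0622; 0.01 in the 8-array fit). In all, 9 of 16 were apart upwards (56.2% against 10.7%) and 0 downwards, with a median of 0.68. CD74, the MHC class II chaperone, read 9.21, 10.03, 10.44 and 10.15 against 11.36, 11.19, 11.21 and 11.45, and CTSS, a cathepsin that cleaves it, 6.68, 8.09, 8.47 and 7.80 against 9.78, 9.46, 9.80 and 9.22. Both were apart and not called (adjusted p = 0.107 for CD74 and 0.074 for CTSS). TAP1 and PSMB8 of the class I pathway overlapped, since mid-late array 1 and late functional array 4 were low for both. Among genes picked after their values were seen, MAMU-I, an MHC class I gene whose probe set can read its many copies, rose by 1.18 (adjusted p = 0.0483) and BTN3A3, a butyrophilin, by 0.97 (adjusted p = 0.0325).

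The mean over 15 macrophage markers was higher on every late functional array than on any mid-late array, without a called gene in the 12-array fit. LYZ, lysozyme, read 7.30, 8.06, 9.91 and 9.27 in mid-late and 11.22, 11.14, 11.58 and 10.68 in late functional arrays. CSF1R, the receptor of the macrophage growth factor, read 6.52, 6.61, 7.86 and 7.28 against 8.34, 8.31, 8.52 and 8.22. Mid-late arrays 1 and 2 were the lowest of the 8 for both genes, and the groups did not overlap. LYZ differed by 2.52 (SE 0.56, adjusted p = 0.0611) and CYBB, the phagocyte oxidase subunit, by 1.58 (adjusted p = 0.271). Of 15 measured markers 0 were called, 7 were apart upwards (46.7% against 10.7%) and 0 downwards, and the median was 1.18. Leaving out mid-late array 3, the highest of its group in list mean, gave 13 apart upwards (86.7%, against 12.4% of all genes in that setting) and 1 downwards. Without any other single array 7 to 9 were apart upwards. After renewed quantile normalization 5 were (33.3%, against 6.86% of all genes). The 8-array fit called 5 higher (CD68, CSF1R, LYZ, AIF1 and CYBB), against 4.24% of all genes. The mean over the list was -0.81, -0.37, 0.88 and 0.30 on mid-late arrays 1 to 4, relative to their average, and 1.18, 1.09, 1.17 and 1.15 on late functional ones. The list mean thus varied by 1.68 among mid-late glands and by 0.09 among late functional ones. Beside this, late regressed arrays ran from 0.37 to 2.00. The part of the macrophage markers in the immune, lysosome and complement results was not tested.

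Complement genes had 1 of 16 called. C1S, a protease of the first complement component, read 8.72, 9.45, 9.96 and 9.81 in mid-late and 10.61, 10.60, 10.70 and 10.70 in late functional arrays, a rise of 1.17 (SE 0.24, adjusted p = 0.0479). The 4 late functional values lay within 0.10 of each other, and mid-late array 1 was the lowest. Of the list 6 were apart upwards (37.5% against 10.7% of all genes; 2, or 12.5% against 6.86%, after renewed quantile normalization) and 0 downwards, with a median of 0.45, or 0.24 without late functional array 4. The macrophage products C1QA and C1QB were apart by 1.38 and 1.31 (adjusted p = 0.343 and 0.275). C5 (0.01), C6 (-0.37) and CR1 (0.07) were not called. The mean over the 2 probe sets of C1S was 1.30 and not called (adjusted p = 0.0642).

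Of 20 lysosome and autophagy genes 12 were apart upwards (60% against 10.7% of all genes) and 1 downwards. SQSTM1, the cargo receptor of autophagy, was the 1 called, at 10.85, 10.67, 10.70 and 10.57 in mid-late and 11.32, 11.31, 11.39 and 11.45 in late functional arrays. It rose by 0.67 (SE 0.14, adjusted p = 0.0495), while its other probe set went the other way and the mean over both was 0.31 (adjusted p = 0.129). The 8-array fit called 8 of the 20 members higher, against 4.24% of all genes. The cathepsin genes CTSS (1.80), CTSK (1.65) and CTSH (0.86), the cholesterol carrier NPC2 (0.43), the kinase ULK1 (0.44) and ATG5 (0.35) were apart upwards, and TFEB, a transcription factor of lysosome genes, was apart downwards at -0.20. The median over the list was 0.40. It ran from 0.36 to 0.44 without any single array and from 0.30 to 0.52 under 4 scalings. CTSS, CTSK and CTSH are also rich in macrophages. Outside the list, and picked after their values were seen, ATG13, a subunit of the kinase complex that starts autophagy, rose by 0.61 (adjusted p = 0.0298) and MANBA, a lysosomal mannosidase, by 1.00 from a dim level (adjusted p = 0.0229).

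**Figure D4:**
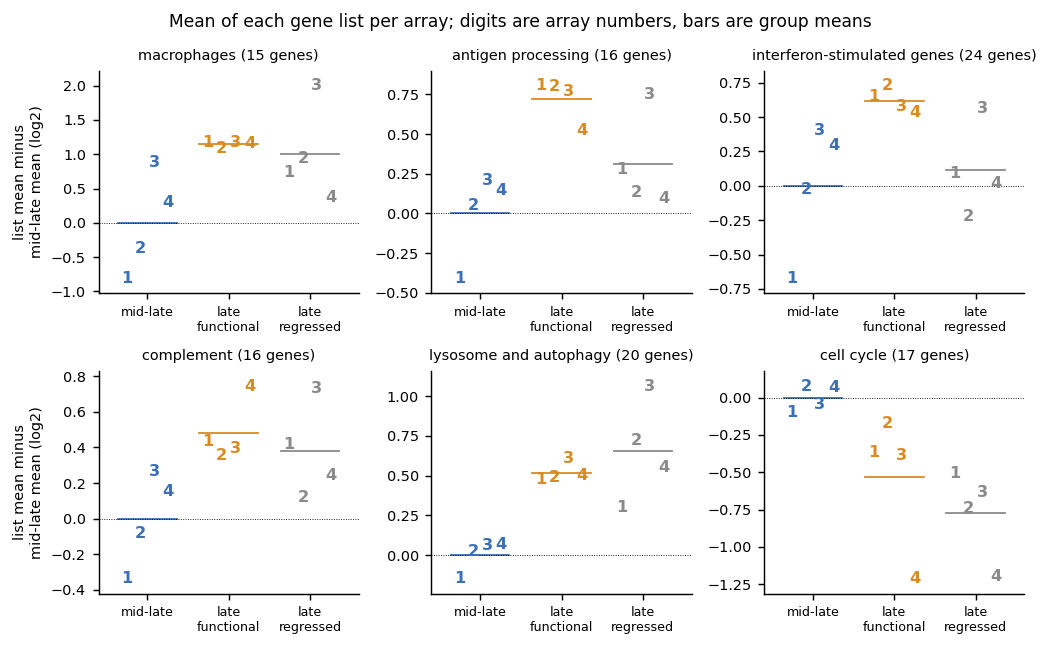
Each panel gives, for 1 gene list, the mean over its members on each array minus the average of the 4 mid-late arrays, on the log2 scale. Digits are array numbers, bars are group means, and the dotted line marks 0. Late functional arrays lie between 1.09 and 1.18 for macrophage genes and between 0.47 and 0.61 for lysosome genes, and below 0 for cell cycle genes with array 4 lowest at -1.21.

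Among cell cycle genes, 1 of 17 fell. AURKB, a kinase of chromosome segregation, read 7.28, 7.39, 7.31 and 7.43 in mid-late and 6.87, 6.78, 6.85 and 6.67 in late functional arrays, and fell by 0.56 (SE 0.10, adjusted p = 0.0399). The mean over its 2 probe sets was -0.34 and not called (adjusted p = 0.0791). The 8-array fit called 4 of the 17 lower, against 2.23% of all genes. In all, 8 of 17 were apart downwards (47.1% against 8.31% of all genes), 0 upwards and 17 of 17 differences were negative, with a median of -0.56. TOP2A, the topoisomerase of dividing cells, read 7.73, 7.81, 7.77 and 7.74 against 6.89, 6.93, 6.11 and 5.25 (adjusted p = 0.132; 0.0329 in the 8-array fit). CCNB1, CCNB2, CENPF, CDK1, MKI67 and TPX2, all of mitosis, were apart as well. For each of them late functional array 4 was the lowest. Without that array the list median was -0.26, and 8 or 9 members were apart without any single array. The replication genes MCM2 (-0.02), MCM5 (-0.03) and PCNA (-0.01) overlapped. Among genes picked after their values were seen, E2F1, a factor that drives entry into S phase, fell by 0.35 (adjusted p = 0.0363), the centromere chaperone HJURP by 0.71 (adjusted p = 0.0352) and CDCA2 by 0.61 at dim signal (adjusted p = 0.0289).

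Few mitochondrial and metabolic genes passed the test. Of 26 oxidative phosphorylation genes 0 were called in either fit and 4 were apart downwards (15.4% against 8.31% of all genes), led by CYC1 (-0.37) and COX7B (-0.36). That count was 8 after renewed quantile normalization and 1 after median centring or centring on the NC mean, with 2 and 3 then apart upwards. The list median was -0.16, and -0.03 without late functional array 4, whose list mean of -0.38 lay below the 0.02 to -0.04 of the other late functional arrays. TIMM10, a chaperone of mitochondrial import, fell by 0.40 (9.42 ± 0.08 to 9.02 ± 0.10, adjusted p = 0.0403) as the 1 called of 16 import and ribosome genes. The mean over its 3 probe sets showed no such fall (-0.07, adjusted p = 0.777). Of 22 glycolysis and citric acid cycle genes 0 were called in either fit and 3 were apart downwards (13.6%, against 8.31% of all genes). PDK4, a brake on glucose oxidation, differed by 0.92 with overlap (adjusted p = 0.288), and HK2 by -0.38 (adjusted p = 0.376).

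In the glutathione and redox list GSTA1, a glutathione transferase of a family of close copies that is abundant in steroid-making cells, fell by 0.79. Its values were 6.16, 6.10, 6.46 and 6.56 in mid-late and 5.61, 5.65, 5.36 and 5.51 in late functional arrays (SE 0.13, adjusted p = 0.0327). It was the 1 called of 22, with 3 apart in each direction (13.6% each, against 10.7% above and 8.31% below over all genes). SOD2, the mitochondrial superoxide dismutase, was apart upwards at 7.74, 8.07, 8.17 and 7.91 against 8.83, 9.06, 9.28 and 8.61 (0.97, adjusted p = 0.303; 0.013 in the 8-array fit). Its other probe set went the other way, and SOD2 was picked after its values were seen.

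Proteasome genes depended on 1 array. Of 22 members 0 were called and 1 was apart upwards, but 14 were apart without late functional array 4 (63.6%, against 15.4% of all genes in that setting), whose list mean of -0.17 stood against 0.21 to 0.31 on the other late functional arrays. The immunoproteasome genes PSMB8 (1.02, adjusted p = 0.243) and PSMB10 (0.65, adjusted p = 0.0983) had the largest differences, and PSMB8 read 8.21 on that array against 9.48 to 9.73 on the others.

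Stress, early response and death genes did not pass the test in the 12-array fit. Of 24 heat shock and chaperone genes 4 were apart upwards (16.7%, against 10.7% of all genes) and 3 downwards (12.5% against 8.31%). Among them were DNAJA1 at 0.55 and FKBP5, a progesterone-responsive chaperone, at -0.62 down to a dim level. Of 15 genes of the unfolded protein response 1 was apart, ATF3 at 0.81 (adjusted p = 0.379; its 2 other probe sets went the other way), which is also 1 of the 3 apart among 20 immediate early genes. ERN1, a sensor of that response, differed by -0.28. FOS read 8.05, 6.83, 5.81 and 7.55 in mid-late and 6.78, 6.18, 5.73 and 5.42 in late functional arrays, and the groups overlapped. Of 24 apoptosis genes 3 were apart upwards (12.5%, against 10.7% of all genes), among them BIRC3, an inhibitor of apoptosis, at 1.07 from a dim level (adjusted p = 0.378). BCL2L11, an activator, differed by 0.72 with overlap (adjusted p = 0.278).

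Chemokine and cytokine genes were split. Of 28 members 3 were apart upwards (10.7%, the same as over all genes) and 4 downwards (14.3% against 8.31%). None were called, and 10 of 28 lay below the dim limit on both group means. CXCL12, a chemokine of stromal cells, read 6.39, 5.48, 6.44 and 6.79 in mid-late and 7.32, 7.26, 7.53 and 7.30 in late functional arrays (1.08, adjusted p = 0.171; 0.0325 in the 8-array fit). CXCL10, an interferon-induced chemokine, differed by 0.92 with overlap, since mid-late array 3 reached 5.79. CCL21 was apart downwards at -0.91, and CCL2 differed by 0.02.

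Vascular, matrix and adhesion lists held no called gene in the 12-array fit. Of 21 angiogenic genes SEMA3A, a guidance factor, was apart at -0.66 from a dim level (adjusted p = 0.0588; 0.0403 in the 8-array fit) and THBS2 differed by 0.52. Of 26 collagen and matrix genes 2 were apart upwards and 1 downwards, with DCN (decorin) at 0.98 and LUM (lumican) at -1.45, both overlapping. LUM was near 7 on mid-late arrays 3 and 4 and near 4 on the other mid-late arrays. Among 23 matrix proteases and inhibitors MMP9, a gelatinase, read 6.10, 7.85, 7.64 and 7.66 in mid-late and 9.90, 10.10, 10.73 and 7.12 in late functional arrays. Late functional array 4 fell within the mid-late range, and the difference of 2.15 was not called (adjusted p = 0.166). ADAMTS4 differed by -0.95 with overlap. Of 20 adhesion genes 1 was apart in each direction, and ALCAM (1.38) and CDH11 (0.94) overlapped.

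Of 30 TGF-beta, activin and BMP genes 2 were apart upwards (6.67%, against 10.7% of all genes) and 4 downwards (13.3% against 8.31%). Among the latter was FSTL3, which binds activin, at -0.79 (adjusted p = 0.115). INHBA, an activin subunit, differed by -0.85 with overlap. Of 23 genes of cyclic AMP and G protein signalling 1 was apart in each direction, and PDE7B (0.49) and PDE8B (-0.59) overlapped. Of 9 prostaglandin genes the receptor PTGDR was apart at -0.57 and PTGES3 at 0.54. Of 24 genes of progesterone and nuclear receptors 3 were apart upwards (12.5%) and 2 downwards (8.33%), near the shares of all genes. NR4A1 differed by -0.66 with overlap.

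Other cell type lists held 1 called gene besides HSD3B2. Of 14 endothelial genes 0 were called and 2 were apart upwards (14.3%, against 10.7% of all genes), TIE1 and ERG (0.34). PECAM1 was at 0.05 and TEK at 0.48. Of 13 fibroblast genes 3 were apart upwards (23.1%, against 10.7% of all genes) and 2 downwards (15.4% against 8.31%). PI16 read 7.29 to 7.77 against 6.32 to 6.73 (adjusted p = 0.0907, and 0.01 in the 8-array fit). CD5, a T cell receptor partner, fell by 0.59 from 5.59 ± 0.15 to 4.99 ± 0.19 (adjusted p = 0.0363) as the 1 called of 9 T and NK cell genes, while CD8A (0.07), NKG7 (0.10) and KLRD1 (0.00) overlapped. The mean over the 3 CD5 probe sets was not called (-0.30, adjusted p = 0.062). Of 7 neutrophil markers 6 and of 7 B and plasma cell markers 5 lay below the dim limit in both groups, and 0 were apart in either list. S100A8 (0.43), S100A12 (-0.34), CD79A (-0.25) and JCHAIN (-0.44) overlapped. KRT8, an epithelial keratin, was apart at 5.56, 7.76, 7.06 and 7.42 against 5.12, 5.31, 5.04 and 5.42 (-1.73, adjusted p = 0.0684; 0.0367 in the 8-array fit). WT1 was apart upwards by 0.60 (adjusted p = 0.174). EPCAM and CDH1, listed here with KRT8 and WT1 under surface epithelium, were at or under 4.00 on all 8 arrays. Of 9 pericyte and smooth muscle genes 1 was apart downwards, with MYH11 at 0.52 and MCAM at -0.23. Erythrocyte genes HBB (-0.59) and HBM (-0.23, dim) and the oocyte gene ZP3 (-0.31) were not called. Of 8 luteal cell markers 3 were apart downwards (37.5% against 8.31%), HSD3B2, MRAP and NR5A1, with a median of -0.23.

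**Figure D5:**
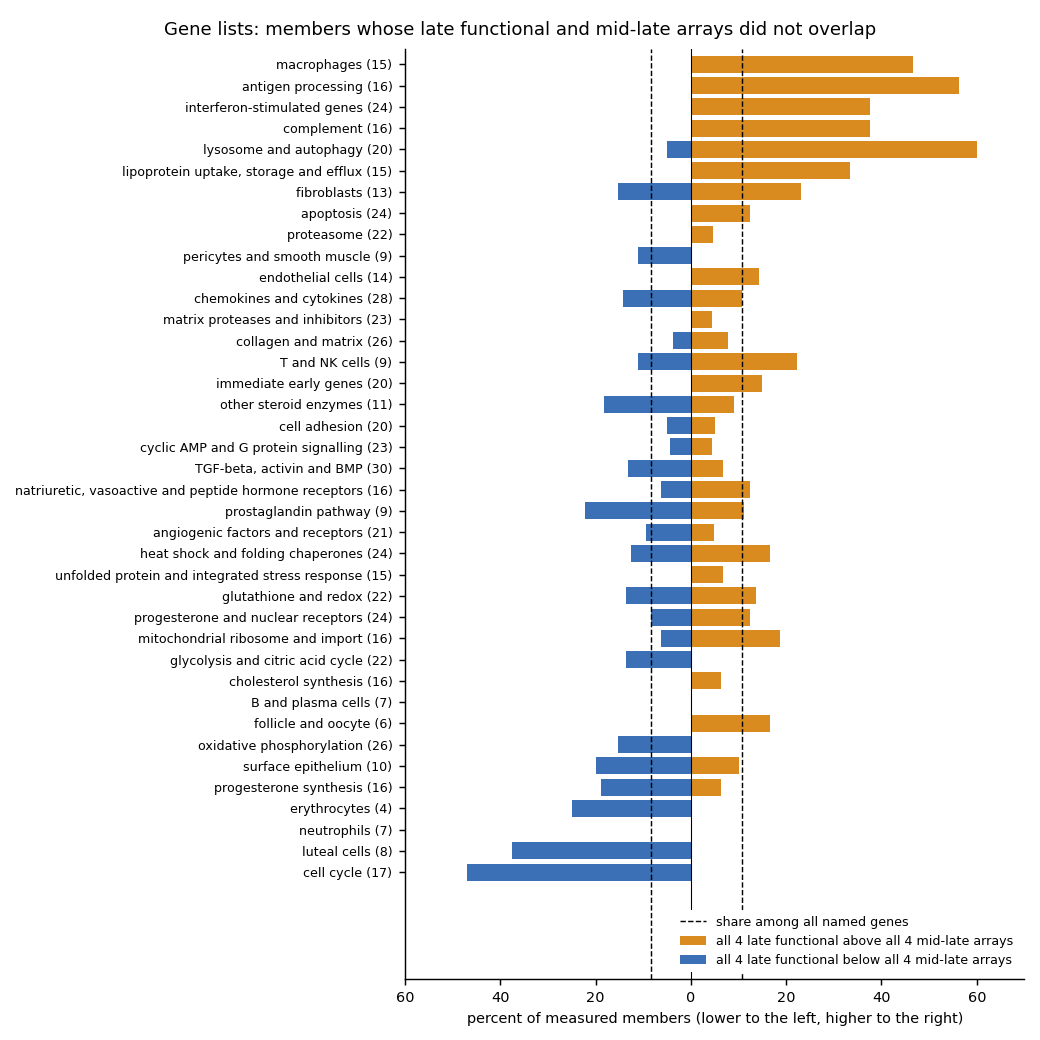
Bars give, for each of 39 gene lists with its number of measured members in brackets, the percent of members whose 4 late functional arrays all lay above (orange, to the right) or below (blue, to the left) all 4 mid-late arrays. Dashed lines mark the same shares over all genes, 10.7% above and 8.31% below. Lists are ordered by median difference. Lysosome genes reach 60% and antigen processing genes 56.2% to the right, and cell cycle genes 47.1% to the left.

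A list's sign mattered only where its median was clear of the scaling. Of the 39 lists, 25 kept the sign of their median over 4 scalings and 14 did not. Centring on the NC mean moved the median of all genes to 0.12 and renewed quantile normalization to -0.02. Under all 4 scalings the medians of macrophage genes (1.08 to 1.30), antigen processing (0.63 to 0.80), interferon-stimulated (0.42 to 0.62), complement (0.34 to 0.57) and lysosome genes (0.30 to 0.52) were positive and that of cell cycle genes (-0.57 to -0.44) negative. The split of called probe sets was less stable, with 37.2% higher as deposited, 56.2% after median centring, 25.2% after renewed quantile normalization and 60.9% in the 8-array fit.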

How the data were processed

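Total RNA of 12 rhesus corpora lutea was hybridised to 1 Affymetrix array each. Per probe set, the authors deposited log2 values made with RMA, per the submitters' processing notes. Scan dates, batches and RMA's version were not given in the sources used here. Of 52865 probe sets, 158 controls were set aside (99 with the prefix AFFX, 59 with RPTR) and 52707 tested. Gene names came from the platform annotation, in which 24956 probe sets have 1 symbol, 361 several and 27390 none. The number of arrays limits the precision.

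limma 3.58.1 in R 4.3.3 fitted the 3 groups on all 12 arrays (lmFit and eBayes) with Benjamini-Hochberg adjustment over all probe sets, and a call is an adjusted p below 0.05. The labels do not say whether replicates came from separate animals, so p-values measure only the spread between these glands. "Apart" means that the 4 and 4 arrays did not overlap. The genes named were a luteal panel, the 10 largest increases and 10 largest decreases at least 2-fold, called and apart, and from each of 39 lists up to 4 called members or, with none called, up to 2 members with the largest differences. Further genes were picked after their values were seen. The members and lists were chosen with earlier results of these data known. The fits were tested on simulated data with independent noise and, for each probe set, the same spread in all groups. That setting held neither the wider spread of the late regressed arrays nor the shift in NC mean, so it does not bear on them.

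Same-numbered arrays did not deviate together (correlations 0.01, 0.06, 0.03 and -0.10), so numbers were not taken as pairs. Alternatives were the 8 arrays alone, a replicate block, signal filters, other scalings, a trended robust prior, array weights, technical covariates, fewer probe set types, averaging all probe sets of a gene, and omitting each array in turn. Leaving out late regressed arrays 2 and 3 together and leaving out arrays within the 8-array fit were added after seeing the data, as were all alternatives for gene lists.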

Additional observations from a re-analysis of the deposited data

Results flagged for a closer look

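In 12 of 188 groups of 4 arrays, tested over the 92 named genes and both technical measures in mid-late and late functional arrays, 1 array lay far from the other 3, with a gap to its nearest neighbour, as a share of the group's whole range, above Dixon's 95% critical value. Chance alone sets about 1 in 20 groups apart in this way, and 12 of 188 is close to that. Late functional array 4 was the distant array in 5 of the 12 and mid-late array 1 in 2.

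Late functional array 4 was low for the proteasome gene PSMB10 at 9.21 against 9.68 to 9.72 (share of the range 0.929), for PSMB8 at 8.21 against 9.48 to 9.73 (0.835) and for the globin gene HBB at 5.78 against 6.84 to 6.90 (0.943). It was high for ST8SIA1 at 8.68 against 7.81 to 7.95 (0.832) and for JCHAIN at 3.94 against 3.48 to 3.54 (0.861), the latter below the dim limit. Mid-late array 1 was low for PSMB8 at 7.48 against 8.46 to 8.54 (0.931) and for MMP9 at 6.10 against 7.64 to 7.85 (0.879).

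Late functional array 3 was low for SAMD9L at 9.03 against 9.49 to 9.55 (0.888) and for S100A8 at 4.41 against 4.74 to 4.80 (0.857). Late functional array 2 was high for CXCL10 at 5.91 against 5.44 to 5.52 (0.832) and for ZP3 at 5.10 against 4.90 to 4.93 (0.864). Mid-late array 3 was high for NR1H3 at 6.85 against 6.37 to 6.43 (0.873).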

How the results depend on the processing

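The count of called probe sets moved widely, and the share of calls that were higher ran from 25.2% to 60.9% over the scalings and the 8-array fit. Against 470 in the 12-array fit, limma called 2682 with the 8 arrays alone, 3106 with array weights and 2417 without late regressed arrays 2 and 3. It called 107 above the median signal, 72 above the NC limit and 59 at least 2-fold. With the 3′ to 5′ gap as a covariate 883 were called, and with the NC mean 0 (3471 at an unadjusted p below 0.05). Both covariates separate the groups, and late regressed array 2 carries most of the range of the first. Leaving out 1 of the 12 arrays gave 4 to 1008, and within the 8-array fit 370 and 480 without late functional arrays 2 and 3, 913, 1339, 1505 and 1526 without mid-late arrays 2, 1, 3 and 4, and 1396 and 2604 without late functional arrays 1 and 4. Median centring and renewed quantile normalization gave 345 each, sharing 313 and 282 with the 470. With the replicate number as a block 4 were called, and the 27 called named genes had adjusted p from 0.0515 to 0.0859; since the numbers do not pair the arrays, this says nothing of the effect's size. The NC covariate gave these genes 0.588 to 0.852. Over the 92 named genes and their alternatives, 2553 values counted as unchanged, 321 lost the call, 93 gained it and 40 moved without a call in either fit. Only the 27 genes called in the 12-array fit could lose a call, so the 321 losses are theirs alone. The unchanged values include those of genes never called, so their number does not measure how stable the calls were. Where a gene was called in the 12-array fit or the alternative, 0 reversed. A gene called in neither counted as unchanged when it moved by under 1 SD of its arrays, even if its sign turned. The 3′ to 5′ control difference of -0.08 was 0.12 for beta-actin alone and -0.27 for GAPDH alone, and ran from -0.088 to -0.057 without 1 array. The NC mean difference of -0.12 ran from -0.13 to -0.10. With 3 arrays in a group the exact test cannot pass unless the groups stay apart, and causes were not tested. Signals under 4.64 limit the size of several folds.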

Other observations

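Some genes outside the lists had large or tight differences and were picked after their values were seen. FAM210B, a mitochondrial protein gene, read 10.18, 10.24, 10.21 and 10.05 in mid-late and 9.15, 9.06, 9.31 and 9.48 in late functional arrays (-0.92, adjusted p = 0.00986 by limma), while late regressed arrays read 10.25, 10.14, 10.09 and 10.33. The late regressed against late functional difference of 0.95 was called as well (adjusted p = 0.0275), and both comparisons share the late functional arrays. FAM210B has 3 probe sets, of which the brightest showed this and the other two went the other way between mid-late and late functional arrays.

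MBLAC2 read 10.04, 9.97 and 10.35 on late functional arrays 1 to 3 but 3.34 on array 4, and 3.82, 5.93, 3.51 and 3.81 on mid-late arrays. Late regressed arrays read 7.02, 3.53, 10.16 and 3.59, and the difference of 4.15 was not called (adjusted p = 0.219). DEFB122, a beta-defensin, read 10.27, 9.55, 9.26 and 9.99 in mid-late and 8.01, 7.94, 7.44 and 4.68 in late functional arrays (-2.75, adjusted p = 0.059, not called).

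Among genes next to each other in the annotation 3 pairs were called. PARP9 and DTX3L, whose products work as a complex, both rose, by 1.17 and 0.91. CARINH, a non-coding gene beside IRF1, rose by 1.08, and the array's strand and overlap there were not examined. In the third pair C5H4orf33 rose by 0.85 and PCDH10 fell by 0.37 at dim signal. PARP9, CARINH and PCDH10 each have another probe set that went the other way.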
